A study of Rattus norvegicus with 8 samples.

Results

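The 10 genes described here encode enzymes and helpers that act on collagen before and after it leaves the cell. They are the collagen prolyl 4-hydroxylase subunits P4ha1 and P4ha2, the lysyl hydroxylases Plod1, Plod2 and Plod3, the collagen chaperone Serpinh1, the procollagen processing enhancer Pcolce and the lysyl oxidases Lox, Loxl1 and Loxl2. Their rows were taken by gene symbol from a deposited expression table of 15590 rat genes, and all 10 were found and were among the 13863 genes tested. Bulk RNA sequencing had been done on right-leg Achilles tendons of male wild-type (WT) SD rats, 8 to 10 weeks old by the study's methods. The 4 libraries of the 0 h p.r. (post-run) group came from rats killed straight after 1 h of uphill treadmill running, with airflow and weak shocks used to keep them on the belt. The 4 libraries of the naïve control (NC) group came from rats that had not run. The methods state for the one-time running study that cage controls were killed together with a later post-run group, so the clock time of sampling may differ between the groups, and exercise, shocks and clock time cannot be told apart. The labels number the replicates but do not say that each came from its own rat, so p-values measure the spread between these libraries.

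Collagen chains are modified while they are made. Prolyl 4-hydroxylases hydroxylate proline residues, which stabilises the triple helix, and lysyl hydroxylases hydroxylate lysine residues that later take part in crosslinks. The chaperone HSP47, encoded by Serpinh1, binds the folded helix in the endoplasmic reticulum. Outside the cell, proteinases such as BMP1 remove the C-propeptide with the help of the enhancer encoded by Pcolce, and lysyl oxidases then oxidise lysine and hydroxylysine residues so that neighbouring molecules crosslink. In tendon these steps determine fibril assembly and tensile strength.

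All 10 genes were well expressed, and none of them passed the test for a difference between the groups. Values are FPKM (fragments per kilobase of transcript per unit of mapped fragments), a unit that is scaled by gene length, and the groups were compared with limma on log2(FPKM + 0.5). At an adjusted p (Benjamini-Hochberg, over all tested genes) under 0.05, 0 of 10 members were called, with or without a fold of at least 2, where 2.7% of all tested genes passed both thresholds (1.8% higher in 0 h p.r.) and 5.72% passed the adjusted p alone. limma's voom applied to the whole reads recovered from the table called 0 as well. At an unadjusted p under 0.05 there were 3 members, Lox, Plod2 and P4ha1, where the share of all tested genes was 22.6%. For the same 3 genes every 0 h p.r. library lay above every NC library, a pattern in this direction that held for 8.15% of all tested genes, and for 15.6% in either direction. The median log2 fold change of the members was 0.05, against -0.0014 for all tested genes, and the median of its size without sign was 0.16 against 0.22. In these bulk samples, fewer cells of a type and less RNA per cell cannot be told apart.

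**Figure D1:**
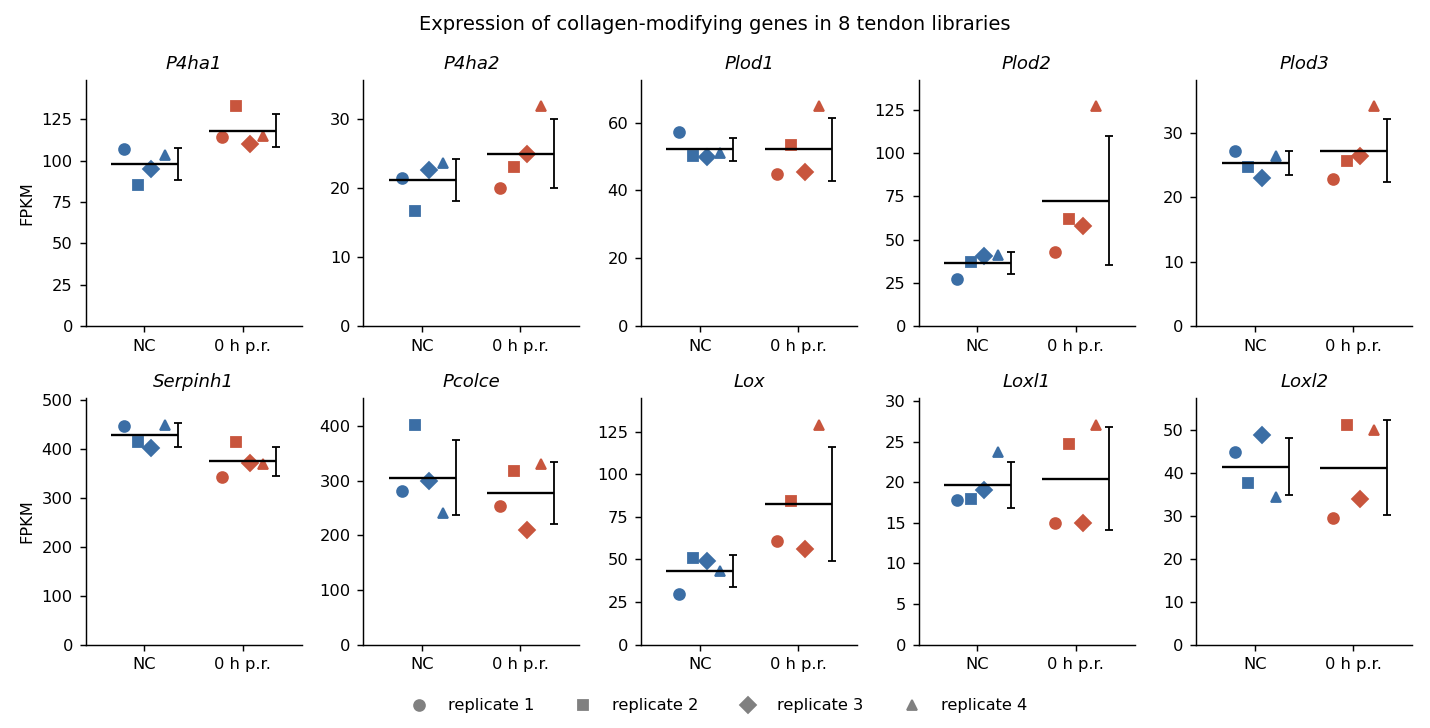
FPKM of each gene (vertical axis, from 0) in the 4 NC libraries (blue) and the 4 0 h p.r. libraries (red), with marker shapes giving replicate numbers, black lines the group means and error bars 1 SD. The groups are apart for P4ha1, Plod2 and Lox, and 0 h p.r. replicate 4 stands highest for Plod2 (127) and Lox (129).

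The prolyl 4-hydroxylase alpha subunits carry the catalytic site and work as tetramers with the protein disulfide isomerase encoded by P4hb. P4ha1 was the more abundant of the pair, at 107, 85.4, 94.9 and 104 FPKM in NC replicates 1 to 4 and 114, 133, 110.3 and 115 FPKM in 0 h p.r. replicates 1 to 4. The groups did not overlap, though the lowest post-run library (110.3) and the highest resting one (107) were close. The means were 97.7 ± 9.63 at rest and 118 ± 10.1 after running (SD, n = 4 each), a log2 fold change of 0.27 (SE 0.12, 95% confidence interval 0.002 to 0.55) with a limma adjusted p of 0.219. After quantile scaling the log2 fold change of P4ha1 was 0.16 (limma adjusted p 0.609). P4ha2 had 21.4, 16.7, 22.6 and 23.6 FPKM in NC and 20.01, 23.0, 24.9 and 31.8 FPKM in 0 h p.r., with overlapping groups, a log2 fold change of 0.23 (SE 0.17) and an adjusted p of 0.476. Its log2 fold change was 0.11 with array weights, 0.12 when NC replicate 2 was left out and 0.11 when 0 h p.r. replicate 4 was. Within a library, P4ha1 was 3.61 to 5.78 times as high as P4ha2 over the 8 libraries, with both ends of that range in 0 h p.r. P4ha1 therefore made up most of the alpha subunit transcript in either group, 80.7% ± 1.499 at rest and 80.0% ± 4.17 after running (SD, n = 4 each) of the summed FPKM of P4ha1, P4ha2 and P4ha3. The beta subunit gene P4hb was at 220.3 ± 19.3 and 221 ± 32.8 FPKM (SD, n = 4 each), a log2 fold change of -0.002 (95% confidence interval -0.33 to 0.33, adjusted p 0.995). The log2 ratio of P4ha1 to P4hb was higher by 0.28 in 0 h p.r., with overlapping groups and p = 0.143 in a two-sided exact permutation test (0.286 adjusted over the 6 ratios tested). Without NC replicate 2 this difference was 0.16.

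Lysyl hydroxylases differ in the lysines they act on. LH2, the product of Plod2, hydroxylates telopeptide lysines, and those of Plod1 and Plod3 act mainly within the helix, with Plod3 also having glycosyltransferase activity. Plod2 was at 27.4, 37.1, 40.8 and 40.9 FPKM in NC and at 42.9, 62.0, 57.8 and 127 FPKM in 0 h p.r. No library of one group reached into the other, but 0 h p.r. replicate 1 lay only just above the highest NC library and replicate 4 lay far above the rest. The means were 36.6 ± 6.34 and 72.5 ± 37.4 (SD, n = 4 each), a fold of 1.83 (95% confidence interval 1.14 to 2.94, log2 fold change 0.87, SE 0.30) with an unadjusted p of 0.0176 and an adjusted p of 0.127 in limma. Without 0 h p.r. replicate 4 the log2 fold change was 0.56, with an adjusted p of 0.103.

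The other lysyl hydroxylases stayed near their resting means. Plod1 had 57.2, 50.2, 49.99 and 51.0 FPKM in NC and 44.9, 53.5, 45.3 and 64.9 FPKM in 0 h p.r. Its post-run libraries lay on both sides of the NC values, with a log2 fold change of -0.01 (95% confidence interval -0.32 to 0.30, adjusted p 0.973). Plod3 had 27.2, 24.7, 23.0 and 26.4 FPKM in NC and 22.8, 25.6, 26.4 and 34.1 FPKM in 0 h p.r., with overlapping groups and a log2 fold change of 0.09 (SE 0.14, adjusted p 0.762). On the scale of the fold, the 95% confidence intervals were 0.799 to 1.23 for Plod1 and 0.859 to 1.32 for Plod3.

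The balance among the lysyl hydroxylases could also be read within each library, where scaling between libraries has no part. The ratio holds the Plod2 values given above over a partner with a log2 fold change of -0.01, so it is not separate evidence. Plod2 stood at 0.479, 0.738, 0.816 and 0.802 times the FPKM of Plod1 in NC and at 0.955, 1.16, 1.27 and 1.96 times in 0 h p.r. Plod1 was thus the higher of the pair in every resting library, while Plod2 was the higher in 3 of the 4 post-run libraries. The log2 ratio was higher by 0.89 in 0 h p.r., with p = 0.0286 in the exact permutation test, the smallest that the 70 assignments of 4 against 4 libraries allow, and 0.0857 after adjustment over the 6 ratios. Of the summed FPKM of the 3 lysyl hydroxylases, Plod2 took 32.0% ± 5.13 at rest and 45.9% ± 7.36 after running (SD, n = 4 each), Plod1 took 45.8% ± 3.66 and 35.6% ± 5.13, and Plod3 took 22.2% ± 1.69 and 18.5% ± 2.56.

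Because P4HA1 and PLOD2 are known targets of the hypoxia-inducible factors, the 250 bases before the transcription start are shown for the members with that background whose groups did not overlap and for which the RefSeq promoter table of rat build GRCr8 has an entry. The table held 8 of the 10 genes, with no entry for Lox and Loxl2. Capitals mark the core of the hypoxia response element, ACGTG or GCGTG, searched on both strands (CACGT and CACGC on the strand printed). The positions are of GRCr8 on the forward strand, chr20:27844796-27845045 for P4ha1 and chr8:101964068-101964317 for Plod2, and both sequences run 5′ to 3′.
P4ha1: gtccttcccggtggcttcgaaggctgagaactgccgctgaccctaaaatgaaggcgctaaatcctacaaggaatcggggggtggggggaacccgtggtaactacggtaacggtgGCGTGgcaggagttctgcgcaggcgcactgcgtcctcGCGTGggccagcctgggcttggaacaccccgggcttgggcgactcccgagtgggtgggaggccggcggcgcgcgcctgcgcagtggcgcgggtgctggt
Plod2: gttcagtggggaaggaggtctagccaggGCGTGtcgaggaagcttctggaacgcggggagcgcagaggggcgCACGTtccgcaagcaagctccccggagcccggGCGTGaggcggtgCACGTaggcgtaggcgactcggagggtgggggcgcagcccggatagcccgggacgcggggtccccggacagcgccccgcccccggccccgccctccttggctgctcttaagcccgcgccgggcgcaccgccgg
The Plod2 window held 4 matches, at 222, 178, 146 and 133 bases before the start, and that of P4ha1 held 2, at 136 and 99 bases. At least 4 matches occurred in 4.49% of the windows of the same length for the tested genes, and at least 2 in 26.4%. Both core strings hold CG, and these shares were not matched for base composition. G and C made up 74.8% of the Plod2 window and 67.6% of that of P4ha1. Of the other members in the table, P4ha2 had 5 matches, Plod1, Plod3 and Pcolce had 1 each, and Loxl1 and Serpinh1 had 0. Their G and C content was 72.4% for P4ha2, 65.6% for Plod1, 69.6% for Plod3, 56% for Pcolce and 60.4% for Loxl1 and Serpinh1. In all, 6 of 8 member windows held a match, against 54.0% of the windows of 10775 tested genes and 36.7% of all 33465 in the table. The AP-1 motif TGANTCA, searched in the same way, was in 0 of the 8 windows, in 4.52% of those of tested genes and in 6.34% of all windows. A match is a string of letters and says nothing of binding.

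Serpinh1 and Pcolce were the most abundant members, above 98.5% and 98.2% of the tested genes by their mean FPKM over the 8 libraries. Serpinh1 had 448, 413, 401 and 449.5 FPKM in NC and 343, 414, 371 and 369.8 FPKM in 0 h p.r. The 3 lowest libraries of the post-run group lay below all NC libraries, and replicate 2 lay among them. The means were 428 ± 24.2 and 375 ± 29.2 (SD, n = 4 each), a log2 fold change of -0.19 (95% confidence interval -0.50 to 0.11) with an adjusted p of 0.454. Set against its main client, Serpinh1 stood at 0.113 to 0.298 times the FPKM of Col1a1 in NC and at 0.131 to 0.258 times in 0 h p.r., with a difference in log2 ratio of -0.24 (exact permutation p = 0.571, adjusted 0.857). This difference ranged from -0.49 without NC replicate 3 to -0.029 without NC replicate 4.

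Pcolce had 280.3, 403, 299.9 and 240.4 FPKM in NC and 253, 319, 209 and 331 FPKM in 0 h p.r. The groups overlapped, although NC replicate 2 lay above every post-run library and 0 h p.r. replicate 3 below every NC library, with a log2 fold change of -0.14 (SE 0.21, adjusted p 0.768). Bmp1, the proteinase that Pcolce assists, was at 24.3 ± 2.53 and 22.1 ± 5.26 FPKM (SD, n = 4 each), a log2 fold change of -0.16 with an adjusted p of 0.665. Pcolce was 9.48 to 19.5 times as high as Bmp1 in NC and 11.8 to 13.9 times in 0 h p.r., so that the post-run libraries fell within the resting range (difference in log2 ratio 0.02, exact permutation p = 0.943).

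Among the lysyl oxidases, Lox was at 29.8, 50.8, 48.9 and 43.4 FPKM in NC and at 60.6, 84.3, 56.3 and 129 FPKM in 0 h p.r. All post-run libraries lay above all resting ones, replicate 4 again being the highest. The means were 43.2 ± 9.48 and 82.6 ± 33.4 (SD, n = 4 each), a fold of 1.83 (95% confidence interval 1.19 to 2.82, log2 fold change 0.88, SE 0.28), and Lox had the lowest p of the members in limma (unadjusted 0.0111, adjusted 0.0987). Without 0 h p.r. replicate 4 the log2 fold change was 0.63, with an adjusted p of 0.112. With array weights, which give less weight to libraries that deviate, the adjusted p of Lox was 0.0398 and its log2 fold change 0.89, in a fit that called 14.9% of all tested genes at the adjusted p.

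Loxl1, which is known for its role in elastic fibres, had 17.9, 17.9, 19.1 and 23.8 FPKM in NC and 15.03, 24.8, 15.001 and 27.1 FPKM in 0 h p.r. Loxl2, which also crosslinks basement membrane collagen, had 44.9, 37.7, 48.9 and 34.5 FPKM in NC and 29.5, 51.3, 33.9 and 50.1 FPKM in 0 h p.r. For both genes replicates 1 and 3 of the post-run group were below all NC libraries, whereas replicates 2 and 4 were above all of them. The log2 fold changes were 0.02 for Loxl1 (95% confidence interval -0.47 to 0.50, adjusted p 0.980) and -0.04 for Loxl2 (-0.50 to 0.42, adjusted p 0.944).

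Within a library, Lox stood at 1.67, 2.84, 2.56 and 1.82 times the FPKM of Loxl1 in NC and at 4.03, 3.40, 3.75 and 4.76 times in 0 h p.r. The groups did not overlap, and the post-run libraries lay closer together on this scale than on that of Lox itself. The log2 ratio was higher by 0.86 in 0 h p.r. (exact permutation p = 0.0286, the smallest possible, and 0.0857 after adjustment over the 6 ratios). It holds the Lox values given above over a partner with a log2 fold change of 0.02, so it is not separate evidence. Lox took 24.7% to 37.7% of the summed FPKM of Lox and Loxl1 to Loxl4 in the NC libraries and 40.5% to 46.7% in the 0 h p.r. libraries.

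**Figure D2:**
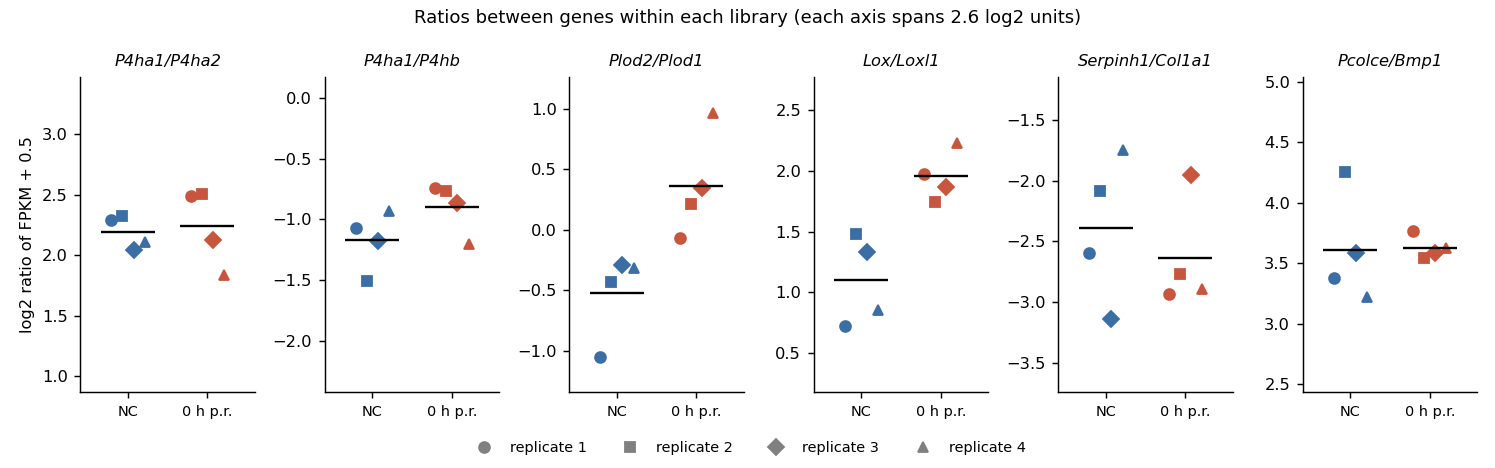
Log2 ratios of FPKM + 0.5 between gene pairs within each library, for NC (blue) and 0 h p.r. (red), with marker shapes giving replicate numbers and lines the group means, on axes of equal span. The groups are apart for Plod2/Plod1 and Lox/Loxl1, where the means differ by 0.89 and 0.86, and overlap for the other 4 ratios.

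The order of the members by FPKM in NC was Serpinh1, Pcolce, P4ha1, Plod1, Lox, Loxl2, Plod2, Plod3, P4ha2 and Loxl1. In 0 h p.r. the outer ranks were the same, while Lox and Plod2 took the places ahead of Plod1 and Loxl2. Neighbours in this order were mostly not separated, since the NC ranges did not overlap only between Pcolce and P4ha1, between P4ha1 and Plod1, and between Plod2 and Plod3. In 0 h p.r. only Serpinh1 and Pcolce, and Pcolce and P4ha1, had ranges that did not overlap.

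Differences among the post-run libraries were large for the members as a group. Replicate 4 had the highest value of all 8 libraries for 6 of the 10 members, and replicate 1 had the lowest for 4. Relative to the NC mean, replicate 4 had 3.48 times as much Plod2 and 2.99 times as much Lox, and replicate 2 had 1.70 and 1.95 times. Replicate 1 had 1.17 times as much Plod2 and 1.403 times as much Lox, and replicate 3 had 1.58 and 1.302 times. The highest and the lowest of the 8 libraries were the same for Plod2 and Lox, 0 h p.r. replicate 4 and NC replicate 1. The median member was at 0.880, 1.16, 0.957 and 1.297 times its NC mean in 0 h p.r. replicates 1 to 4.

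**Figure D3:**
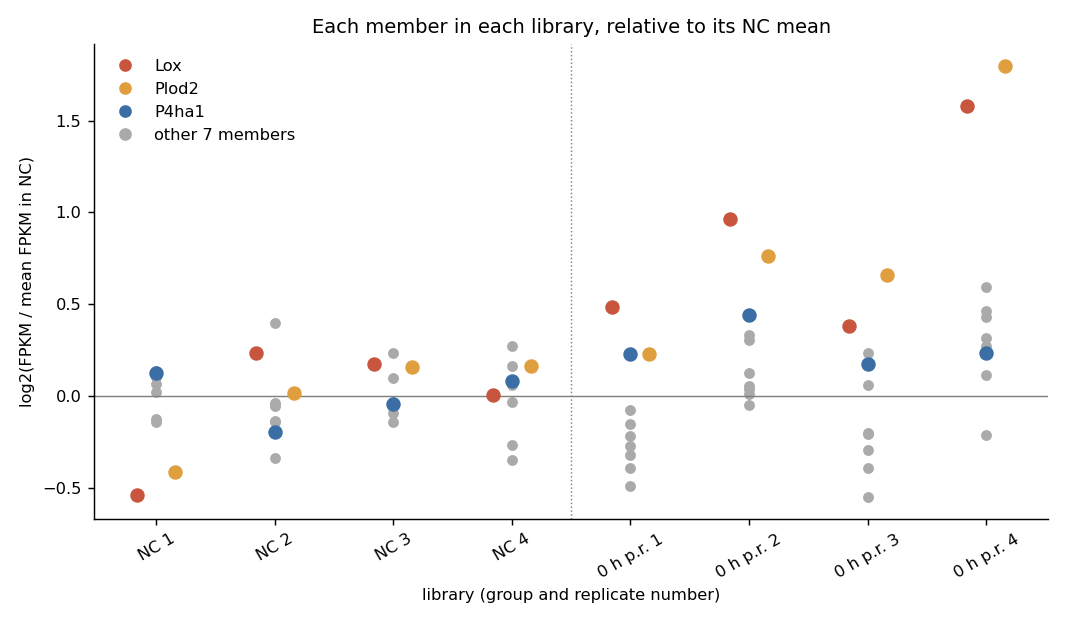
Log2 of the FPKM of each member over its mean in NC (vertical axis) in each of the 8 libraries (horizontal axis), with Lox, Plod2 and P4ha1 in colour (Lox and Plod2 shifted sideways) and the other 7 members in grey. Lox, Plod2 and P4ha1 lie above 0 in all 4 post-run libraries, while the other members lie on both sides of 0 in replicates 2 to 4 and all below it in replicate 1.

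Several tissue markers moved with the groups or with single libraries, and their part in the values above was not tested beyond what is stated here. Each list was compared by the mean of log2(FPKM + 0.5) over its tested genes with a two-sided exact permutation test, and p-values were adjusted over the 9 lists other than tendon. The tendon list, which was present with all 10 of its genes and is made up of genes such as Scx, Tnmd and Comp, differed by 0.14 between the groups (permutation p = 0.571), and its summed FPKM ranged from 7629 to 13353 in NC and from 10803 to 22391 in 0 h p.r., where replicate 4 was the highest, with Dcn the most abundant gene. Adipocyte markers were lower in 0 h p.r. by 1.47 on the log2 scale (permutation p = 0.0286, adjusted 0.129), with all 12 genes lower, 8 of them at a limma adjusted p under 0.05, and summed FPKM of 3237 to 6512 in NC and 1153 to 2373 in 0 h p.r. (Fabp4 the highest). Bone markers were higher by 1.54 (permutation p = 0.0286, adjusted 0.129) in all 7 genes tested. Their sums were 15.9 to 64.9 FPKM in NC and 62.1 to 201 in 0 h p.r. (Ibsp the highest). Only Phex had a limma adjusted p under 0.05, at 0.147 to 0.334 FPKM in NC and 0.735 to 0.909 in 0 h p.r. Phex passed the expression filter (0.5 FPKM in 4 libraries) only through the post-run libraries, so its call is not read as support. Bglap also needed post-run libraries to pass, and the list mean includes both genes. Of the defining bone genes, Sost was at or under 0.151 FPKM in NC and reached 1.24 in 0 h p.r.

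Cartilage markers were higher by 1.55 (permutation p = 0.0571, adjusted 0.171) in 5 of 6 genes tested, 0 of them at an adjusted p under 0.05, with sums of 1186 to 1668 and 1720.3 to 4513 FPKM (Chad the highest). Replicate 4, the post-run library with the most Plod2 and Lox, stood at an end of the post-run group for every marker list. Its sums were the highest of that group for tendon, adipocyte, bone, cartilage, macrophage, erythroid and Schwann cell markers. They were the lowest for skeletal muscle, endothelial and neutrophil markers. Skeletal muscle markers differed by 0.07 (permutation p = 0.943) but varied within 0 h p.r., where 10 of the 12 genes listed had a row and their sums were 39985, 6772, 17949 and 1197 FPKM in replicates 1 to 4 against 4644 to 8537 in NC, with Acta1 the highest. Of the 10 muscle genes, 8 had positive log2 fold changes (0.15 to 1.76), whereas the slow-fibre genes Myh7 and Tnnt1 had -3.42 and -3.54, and 0 were called at the adjusted p. With muscle markers as a covariate, added after the data had been seen, the log2 fold changes were 0.89 for Plod2 (adjusted p 0.0444) and 0.89 for Lox (adjusted p 0.0701), in a fit that called 7.31% of all tested genes at the adjusted p. Endothelial, macrophage, neutrophil, erythroid and Schwann cell lists differed by -0.02, -0.18, -0.11, -0.33 and -0.09, with permutation p from 0.486 to 0.886, and their most abundant genes were Emcn, Cd14, Mpo, Hba-a2 and S100b in that order. The neutrophil mean joined opposite values of the 2 genes tested, -1.45 for Mpo and 1.23 for S100a9 on the log2 scale. Mpo was at 1.10 to 2.98 FPKM in NC and 0.238 to 0.460 in 0 h p.r. S100a9 had only 7, 1, 2 and 2 reads in NC replicates 1 to 4 and 12, 15, 11 and 10 in 0 h p.r. Both genes passed the expression filter through the group where they were high, so their calls are not read as support. The endothelial gene Egfl7 rose by 0.75 (limma adjusted p 0.0270). Neutrophil genes summed to at most 3.72 FPKM in any library and the erythroid membrane gene Slc4a1 to at most 0.291.

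**Figure D4:**
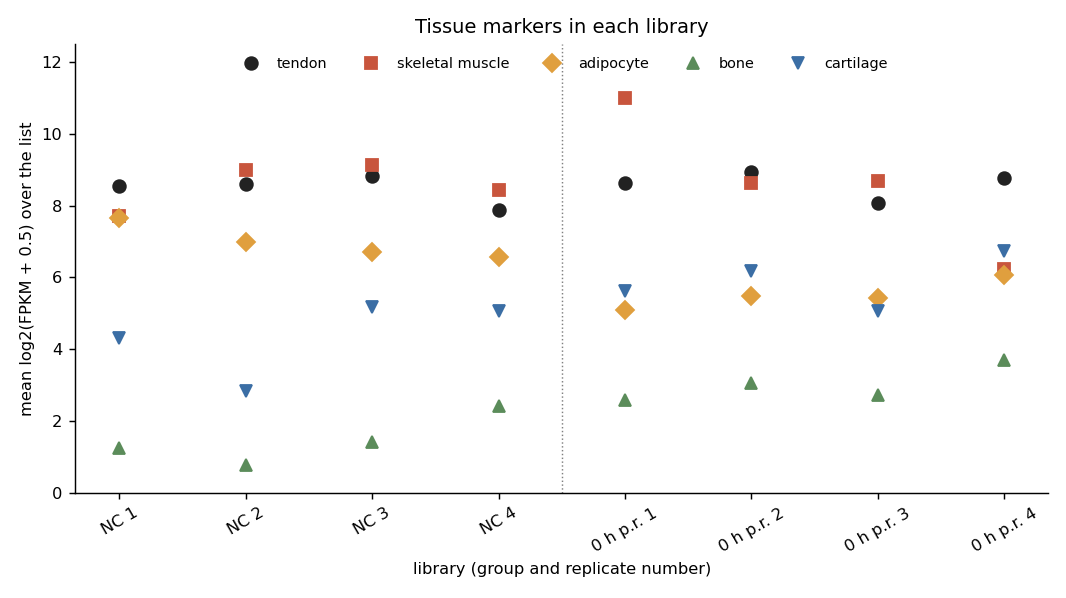
Mean log2(FPKM + 0.5) over the tested genes of 5 marker lists (vertical axis) in each library (horizontal axis, group and replicate number). Adipocyte markers are lower and bone markers higher in every 0 h p.r. library than in any NC library, and muscle markers are highest in 0 h p.r. replicate 1 and lowest in replicate 4.

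Of 30 other genes listed for the same pathway, 25 had a row and 24 were tested, among them prolyl 3-hydroxylases, collagen galactosyltransferases, secretory coat proteins, procollagen proteinases and further lysyl oxidases, while Adamts3 was under the expression filter and Crtap, Mia3, Tll2, Mep1a and Pcolce2 were not analysed here. By sign of the log2 fold change, 15 had positive and 9 negative values. In limma 0 of 24 had an adjusted p under 0.05, in the voom fit on recovered reads likewise 0, and 1 had an unadjusted p under 0.05, where the shares of all tested genes in limma were 5.72% at the adjusted and 22.6% at the unadjusted p. The median log2 fold change was 0.02. The largest positive values belonged to the galactosyltransferase gene Colgalt2 (0.87, SE 0.46, adjusted p 0.306) and to P4ha3, the third alpha subunit (0.82, SE 0.30, adjusted p 0.146), whose groups overlapped. P4ha3 was a minor form, at 2.30 ± 0.61 FPKM at rest and 4.70 ± 2.43 after running (SD, n = 4 each), with 8.27 in replicate 4. The largest negative values were those of the transglutaminase gene Tgm2 (-0.30, adjusted p 0.365) and of Tll1, a proteinase related to BMP1 (-0.16, adjusted p 0.721, and -0.015 without NC replicate 1).

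Among 9 fibrillar collagen genes, the substrates of these enzymes, 1 passed at an adjusted p under 0.05 in limma, where 5.72% of all tested genes did. Col5a3, which encodes the minor alpha 3 chain of type V collagen, had 46.5, 35.8, 40.4 and 43.0 FPKM in NC and 22.5, 31.7, 15.9 and 26.1 FPKM in 0 h p.r. It fell by 0.81 on the log2 scale (SE 0.20, 95% confidence interval -1.25 to -0.36), a fold of 0.571, with an adjusted p of 0.0484 and all post-run libraries below all resting ones. The call was lost in 6 of the 8 fits that left out 1 library, where the adjusted p ranged from 0.0482 to 0.136, and in 5 of 13 other settings. Adipocyte markers were lower in the same libraries, as given above, and their part in the Col5a3 value was not tested.

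The other 8 fibrillar collagen genes had no call. Col1a1 was at 2380.3 ± 933 FPKM at rest and 2409 ± 651 after running (SD, n = 4 each), a log2 fold change of 0.05 (95% confidence interval -0.78 to 0.88, adjusted p 0.958). Col2a1, the cartilage collagen, had the largest positive log2 fold change of the list (2.75, SE 1.05, adjusted p 0.161), from 0.934 to 40.6 FPKM in NC and 16.2 to 171 FPKM in 0 h p.r. with overlapping groups, and it is also in the cartilage marker list. The next values were 0.24 for Col5a1 (adjusted p 0.696) on the positive side and -0.005 for Col11a2 (adjusted p 0.995) on the negative side.

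**Figure D5:**
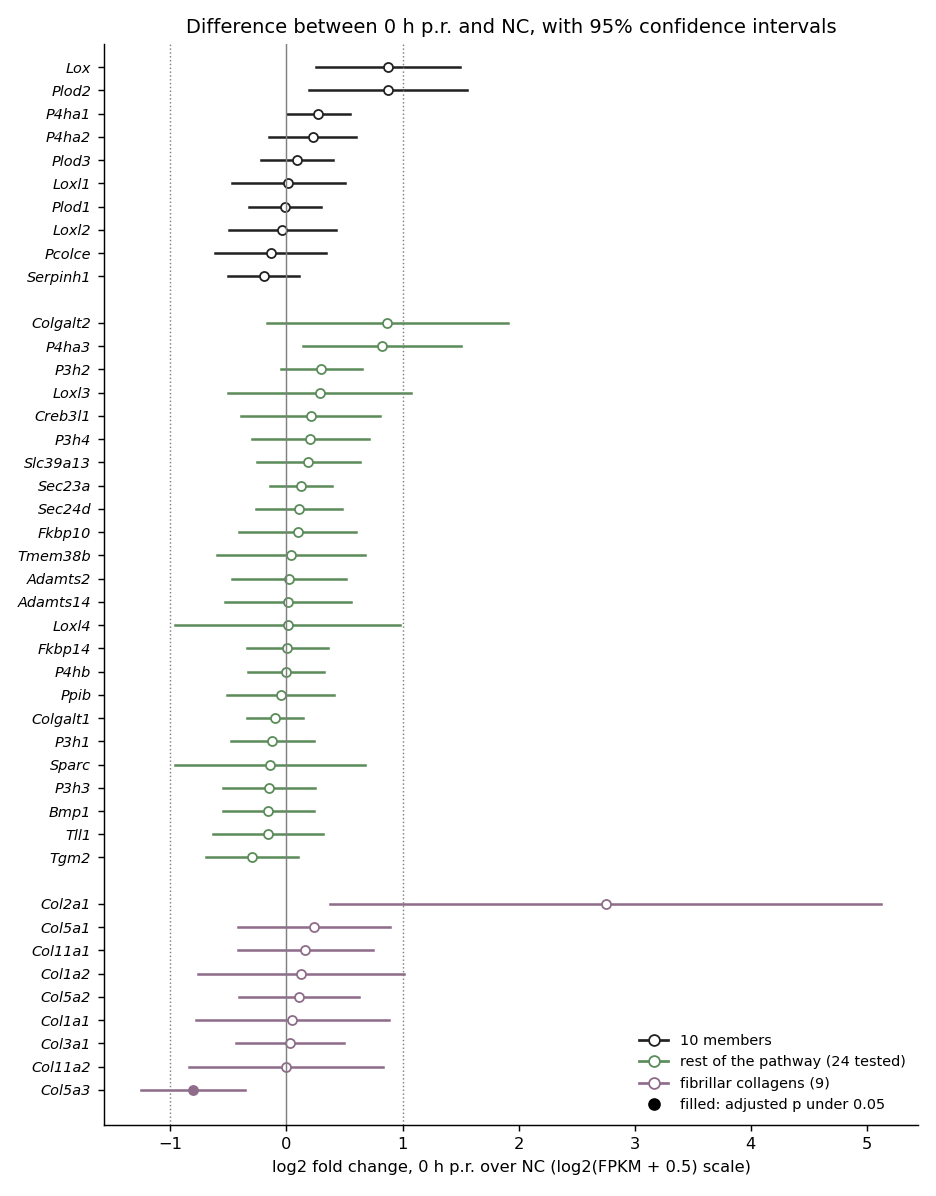
Log2 fold change of 0 h p.r. over NC on the log2(FPKM + 0.5) scale (horizontal axis) with 95% confidence intervals from limma, for the 10 members (black), 24 other genes of the pathway (green) and 9 fibrillar collagens (purple), with dotted lines at a fold of 2 in either direction. Lox, Plod2 and P4ha1 are the members whose unadjusted intervals lie above 0, and the only filled point, an adjusted p under 0.05, is Col5a3 at -0.81.

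P4ha1, P4ha2, Plod1, Plod2 and Lox are known as genes that hypoxia-inducible factors can induce. A list of 15 other such genes, among them genes of glycolysis, pH control and angiogenesis, was read from the same fit. Of 14 tested, 11 had a positive log2 fold change, 4 passed both thresholds, all of these higher in 0 h p.r., and 7 had 0 h p.r. libraries that were all above the NC libraries, where the shares of all tested genes were 1.8% for the former and 8.15% for the latter. The median log2 fold change was 0.77, with a range from -0.07 to 1.73, so Plod2 (0.87) and Lox (0.88) lay near the middle of that list, P4ha1 (0.27) and P4ha2 (0.23) lay below its median, and Plod1 (-0.01) lay near its lower end. The 3 genes of the list with negative values were Bnip3 (-0.02), Pdk1 (-0.07) and Pfkfb3 (-0.07). Skeletal muscle also expresses glycolytic genes, and among the post-run libraries the muscle marker sums were highest in replicate 1, then 3, 2 and 4. The 4 genes that passed both thresholds are given for replicates 1 to 4. The glucose transporter gene Slc2a1 had 28.4, 32.6, 32.4 and 42.5 FPKM, and the carbonic anhydrase gene Car9 1.75, 3.07, 4.796 and 2.25. The hexokinase gene Hk2 had 23.95, 19.7, 30.1 and 8.40 FPKM, lowest in replicate 4. Egln3, for a prolyl hydroxylase of hypoxia-inducible factors and not of collagen, had 27.2, 16.6, 21.5 and 18.1 FPKM, highest in replicate 1. The glycolytic Ldha and Pgk1, which did not pass, had the order of the muscle sums. They went from 944 and 372 FPKM in replicate 1 to 418 and 145 FPKM in replicate 4. The part of muscle RNA in the values of this list was not tested.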

How the data were processed

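RNA from 4 NC and 4 0 h p.r. tendon libraries was analysed, grouped by the sample titles. The authors made stranded libraries from polyadenylated RNA and counted reads per gene after alignment to rat build Rnor_6.0. The submitters' processing notes name HISAT2 2.1.0, featureCounts 1.6.3 and DESeq2 1.30.1. The deposited table gives FPKM per library, and the columns of the authors' own comparison (log2 fold changes and p-values) were not used. The deposited FPKM summed to between 554130 and 900138 per library. Rows carry Ensembl identifiers and symbols without positions.

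The filter kept 13863 of 15590 genes (FPKM at or above 0.5 in 4 or more of the 8 libraries), which were transformed to log2(FPKM + 0.5), which understates changes of low genes, and compared with limma 3.58.1 in R 4.3.3 (eBayes with trend, two-sided, no covariate, Benjamini-Hochberg over all tested genes), a script tested on simulated data. The thresholds were an adjusted p under 0.05 and, where stated, a fold of at least 2. Ratios and marker lists were compared by exact permutation over 70 assignments in Python 3.11.15. Whole reads were recovered from the FPKM steps for 15589 genes (within 0.05 reads of a whole number), giving 10660131 to 17464752 reads per library. The mitochondrial share of FPKM was 31.1% in NC replicate 2 and 16.3% to 21.9% elsewhere. Each member had at least 402 recovered reads in every library, so counting error was small beside the spread between libraries. RefSeq promoters (build GRCr8) were matched by symbol.

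The members and the lists were chosen with earlier results of these data known. Named genes were all members, the ratio partners and, for the rest of the pathway and the fibrillar collagens, each gene at an adjusted p under 0.05 and the 2 largest changes in each direction. Hypoxia targets were given as counts, and those named were chosen after their values were seen. Of each marker list the most abundant and the defining genes at or near 0 were named, with a few others as examples. Mpo, S100a9, Egfl7, Phex, Bglap, Myh7 and Tnnt1 were named after their values were seen. Alternatives were pseudocounts of 0.1 and 1, omission of the filter, a filter on the mean FPKM (2 or more), scaling by quantiles, by median ratios or to equal FPKM totals, a replicate block, array weights, voom on recovered reads, protein-coding genes only and leaving out each library. A muscle covariate and leaving out both 0 h p.r. replicate 1 (most muscle RNA) and NC replicate 2 were added after the data were seen.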

Additional observations from a re-analysis of the deposited data

Results flagged for a closer look

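Of 52 groups of 4 values examined (each member, ratio and marker list in each group), 3 held a library far from the other 3, and chance alone gives about 1 in 20 groups. Plod1 was at 57.2 FPKM in NC replicate 1, against 49.99 to 51.0 in the other NC libraries. The log2 ratio of Serpinh1 to Col1a1 was -1.95 in 0 h p.r. replicate 3, against -2.93 to -2.77 in the other post-run libraries. The mean log2 level of the Schwann cell markers was 5.12 in 0 h p.r. replicate 2, against 4.58 to 4.66 in the others. The high values of Plod2 and Lox in 0 h p.r. replicate 4 did not meet this criterion.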

How the results depend on the processing

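At an adjusted p under 0.05, the count of members moved from 0 to 1 with array weights (Lox, 0.0398) and with the muscle covariate (Plod2, 0.0444), and was 0 in the other 11 settings and without any 1 library. Those fits called 14.9% and 7.31% of all tested genes, against 5.72%. Over the 13 settings the adjusted p ranged from 0.0398 to 0.254 for Lox, 0.0444 to 0.335 for Plod2 and 0.113 to 0.737 for P4ha1, whose log2 fold changes were 0.79 to 1.08, 0.78 to 1.09 and 0.16 (quantile scaling) to 0.28. Without any 1 library they were 0.63 to 1.03, 0.56 to 1.08 and 0.21 to 0.32. The count of fibrillar collagens was 0 in place of 1 with a pseudocount of 0.1, no filter, equal FPKM totals, the replicate block, and both 0 h p.r. replicate 1 and NC replicate 2 left out, and 0 to 1 without single libraries. Counts over all genes at both thresholds (374) went to 171 with equal FPKM totals, to 198 with both of those libraries left out and to 191 (0 h p.r. replicate 2), 195 (0 h p.r. replicate 3), 210 (NC replicate 1) and 241 (0 h p.r. replicate 1) without the library named, and at the adjusted p alone (793) to 178 with equal FPKM totals, 361 with both left out, 2069 with array weights and 247 to 1164 without single libraries.

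Values near 0 changed sign. Loxl1 was -0.052 after quantile scaling. With 0 h p.r. replicate 1 and NC replicate 2 both left out, Plod1 was 0.036, Loxl2 0.067, Pcolce 0.042, P4hb 0.11 and Col1a1 -0.13. P4hb was 0.0032 with median-ratio scaling, 0.022 with array weights and 0.0043 with the muscle covariate, and Col1a1 was -0.092 with array weights. Without single libraries the log2 differences ranged from -0.12 to 0.053 for Plod1, -0.022 to 0.17 for Plod3, -0.13 to 0.14 for Loxl1, -0.15 to 0.11 for Loxl2, -0.24 to 0.0047 for Pcolce, -0.093 to 0.063 for P4hb, -0.14 to 0.28 for Col1a1 and -0.21 to 0.25 for Col11a2. Other values moved by over 1.5 times without changing sign. They ranged from 0.11 (0 h p.r. replicate 4) to 0.32 for P4ha2, 0.54 (0 h p.r. replicate 4) to 1.005 for P4ha3, 0.48 (0 h p.r. replicate 4) to 1.14 for Colgalt2, -0.29 (0 h p.r. replicate 3) to -0.015 (NC replicate 1) for Tll1, -0.26 (0 h p.r. replicate 2) to -0.042 (0 h p.r. replicate 3) for Bmp1, 1.76 (NC replicate 2) to 3.48 for Col2a1, 0.0078 (NC replicate 2) to 0.37 (0 h p.r. replicate 3) for Col5a1 and 0.16 (NC replicate 2) to 0.38 for P4ha1/P4hb, and from -0.36 (0 h p.r. replicate 4) to -0.019 (0 h p.r. replicate 3) for macrophage, -0.58 (NC replicate 3) to -0.036 (0 h p.r. replicate 3) for erythroid and -0.21 (0 h p.r. replicate 2) to -0.010 (NC replicate 2) for Schwann cell markers. Ranges that crossed 0 were also -0.043 to 0.18 for P4ha1/P4ha2, -0.11 to 0.23 for Pcolce/Bmp1, -0.054 to 0.32 for tendon, -0.71 to 0.87 for muscle, -0.081 to 0.076 for endothelial and -0.24 to 0.090 for neutrophil markers. The causes of these shifts were not tested.

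Correlations of deviations between libraries of the same replicate number were -0.14, -0.07, 0.07 and 0.006 for numbers 1 to 4. Between libraries of different numbers they ranged from -0.249 to 0.234. These values gave no sign of a pairing by replicate number but cannot exclude one. With the replicate number as a block, 212 genes passed both thresholds and 235 the adjusted p, the counts of members and of the rest of the pathway were 0, and the adjusted p was 0.117 for Lox, 0.106 for Plod2 and 0.113 for Col5a3. With 4 libraries per group, ratios could not reach a permutation p under 0.0286.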
